A study of Mus musculus with 8 samples.

Results

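Genes that mark blood stem cells, among them many that endothelial cells also use, were compared between wild type progenitors and progenitors that carry FLT3-ITD, a tandem duplication inside the gene for the tyrosine kinase receptor FLT3. The list held 33 genes chosen by name, with earlier results of these data known. A gene was measured by the probe sets that the array annotation gave to that gene alone, and the brightest of them on average across the 8 arrays stood for it. For 31 of the 33 genes 1 or more such probe sets were used, 75 in all; Ly6a and Slc22a3 were not analysed here. Of these 31 genes, 22 exceeded the median of their array on 4 arrays or more and were tested, among 10762 tested genes of 18193 measured. The other 9 were too dim for that filter: Fgd5, Tek, Abcb1a, Sult1a1, Ndn, Fhl1, Ctnnal1, Prom1 and Jam2. Since a dim gene passes when the genotype that is higher lifts it, counts over the tested genes do not stand for all members.

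Haematopoietic stem cells are quiescent cells of the bone marrow that keep the blood supplied for life, and they share an origin in the embryo with blood vessel endothelium. Transcription factors such as Mecom, Hlf and Prdm16 hold the stem cell state. Surface proteins such as Procr, Esam and Tek, known from the vessel wall, are used to find these cells. Multipotent progenitors lie downstream of the stem cell. They divide more, and the surface proteins CD48 and CD150 are the usual way to separate them from stem cells, which are CD150 positive and CD48 negative.

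Bone marrow cells were taken from C57BL6 females 8 to 10 weeks old, with 4 samples of each genotype. The sorted cells lacked lineage markers and CD150 and carried CD48, c-Kit and Sca-1; the labels call them lympho-myeloid multipotent progenitors, so the gate itself removed CD150 positive stem cells. The labels do not say how the FLT3-ITD allele was made, whether mice carried 1 copy or more, or whether each replicate was a mouse of its own. The p-values therefore cover the spread of these samples alone, and that spread may be technical. Replicates of both genotypes are numbered 1 to 3, and a further sample repeats the number 1 with the tag 037. What 037 stands for is not stated in the sources used here, and that sample is called replicate 037. In such bulk samples fewer cells of a type and less RNA per cell cannot be told apart.

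All values are log2 expression values after RMA, the authors' normalization, and every difference is FLT3-ITD minus wild type on that log2 scale, with its standard error (SE) from limma. Array medians lay between 5.98 and 6.05. The array of FLT3-ITD replicate 1 was the least like the rest (r = 0.948 to 0.960). In FLT3-ITD replicate 037 the Gapdh controls, which gauge RNA quality, differed most between their 3′ and 5′ ends (2.99 on the log2 scale, and 1.82 to 2.29 on the other arrays). The depth of an array is not a count, and the number of arrays limits the precision. Of the sorting markers, Cd48 rose (1.06, SE 0.13, adjusted p = 0.0074), as 0.427% of all tested genes did. Kit, which codes for c-Kit, differed by −0.47 (SE 0.17, adjusted p = 0.427), and Ly6a, which codes for Sca-1, was not analysed. Flt3, which is not among the sorting markers named above, fell (−1.17, SE 0.20, adjusted p = 0.0406), as 0.177% of all tested genes did. Slamf1, which codes for CD150, lay below the array median on every array of both genotypes, and averaged 4.73 ± 0.69 (SD, n = 4) in wild type samples and 4.51 ± 0.11 (SD, n = 4) in FLT3-ITD samples. The array does not read the duplication in Flt3, so these values do not check the genotype labels.

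No member of the list changed at an adjusted p of 0.05 (limma, Benjamini-Hochberg over all genes tested), in either direction; Vldlr passed only on another probe set or as a mean over its probe sets, as given with its values. Over all genes tested, 46 rose, or 0.427%, and 19 fell, or 0.177%. Most tested members nevertheless read lower in FLT3-ITD: 19 of the 22, or 86.4%, had a negative difference, against 46.3% of all genes tested. Over all 31 measured members 22 were negative, or 71.0%, against 44.1% of the 18193 genes measured, and 6 of the 9 members below the filter were positive. The median difference of the 22 was −0.25, against 0.02 over all genes tested. At an unadjusted p under 0.05, 5 members read lower (Angpt1, Txnip, Hlf, Vldlr and Abcg2), which is 22.7% of the tested members against 3.84% of all tested genes, and none read higher, against 5.74%. In 4 of them (Angpt1, Txnip, Hlf and Vldlr) every FLT3-ITD sample lay below every wild type sample, which is 18.2% of the tested members against 2.44% of all tested genes. None of the tested members lay higher without overlap, which 3.77% of all tested genes did. The list was chosen with earlier results of these data known, so these shares describe it and do not test it. Cd9, Thy1 and Neo1 were the tested members with a positive difference. Among members below the filter, Fgd5 was higher in every FLT3-ITD sample. No member passed without the filter either, a fit in which 0.275% of 18193 genes rose and 0.0989% fell.

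**Figure D1:**
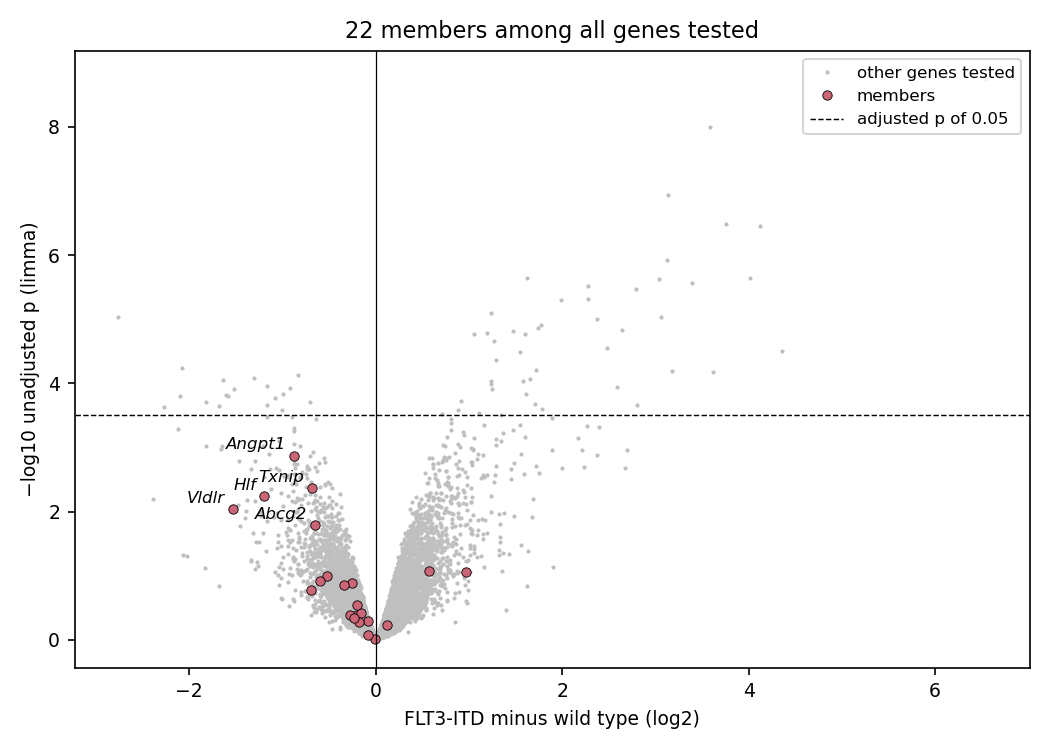
Each point is 1 tested gene, with the difference between FLT3-ITD and wild type (log2) on the x axis and −log10 of the unadjusted p from limma on the y axis; the 22 tested members are the large points. The members lie below the dashed line of the adjusted p of 0.05, 19 of them left of 0, with Angpt1 the nearest to the line.

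FLT3-ITD replicate 1 was the lowest FLT3-ITD sample for 13 of the 22 tested members. Relative to the wild type mean of each gene, the median member read −0.44 in that sample and −0.34 in replicate 2. It read −0.22 in replicate 3 and −0.08 in replicate 037, against −0.10 to 0.08 in the wild type samples. The wild type samples make up that mean, so their values are held near it by construction. Without FLT3-ITD replicate 1, 18 of 20 tested members were negative, their median was −0.28 and 5 read lower at an unadjusted p under 0.05. Without FLT3-ITD replicate 037, 19 of 21 were negative, with a median of −0.34 and 7 lower at that level. Over the removal of each of the 8 samples in turn, the number of negative members ran from 16 to 20 and their median from −0.34 to −0.21. No removal gave a member, read on the probe set that stood for it, an adjusted p under 0.05.

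**Figure D2:**
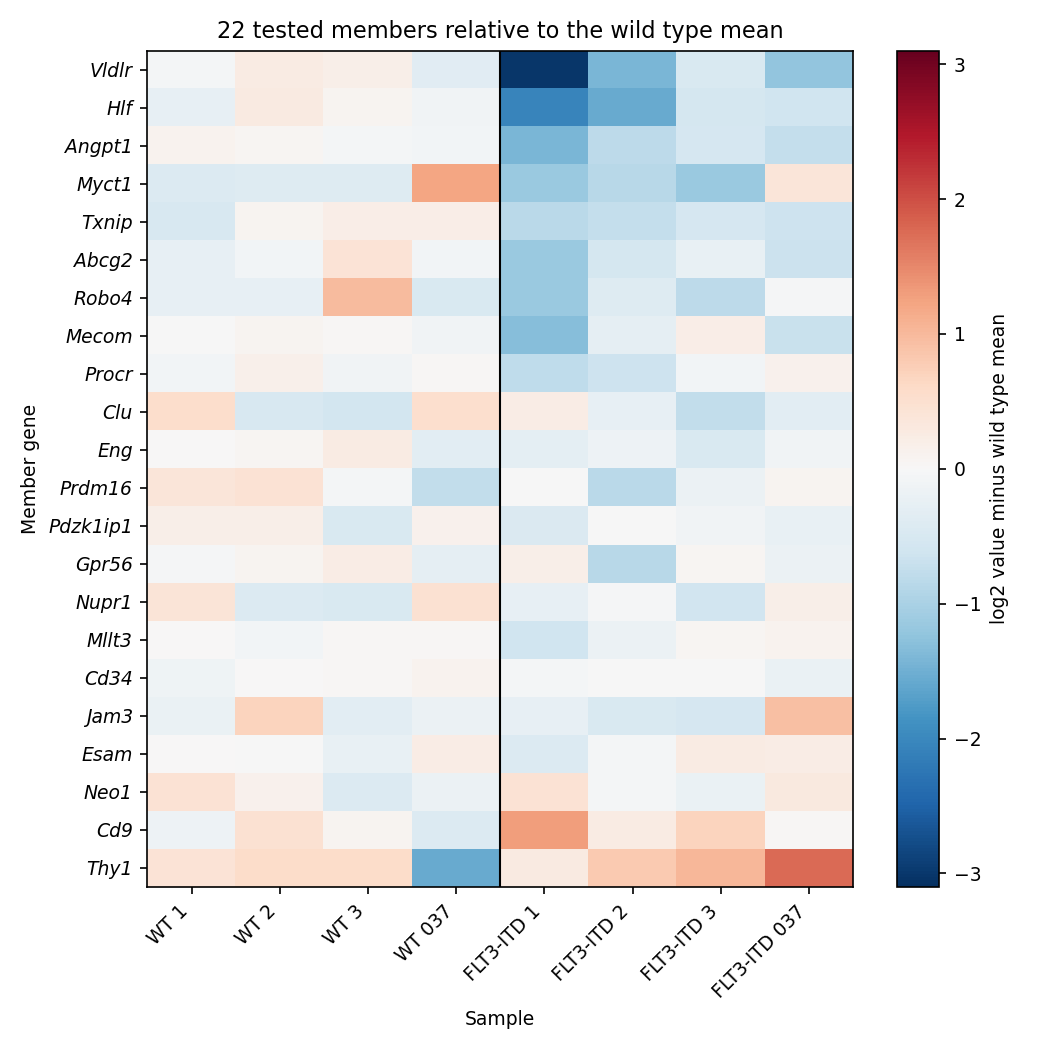
Rows are the 22 tested members ordered by their difference, columns are the 8 samples, and colour is the log2 value minus the wild type mean of that gene. The darkest cell is Vldlr in FLT3-ITD replicate 1, and Thy1 in wild type replicate 037 stands out as low among wild type samples.

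On the probe sets that stood for them, the transcription factors and chromatin genes of the stem cell state were all lower in mean. All 5 tested genes of this group (Hlf, Mecom, Prdm16, Nupr1 and Mllt3) had a negative difference, with a median of −0.23, and none passed the test. Hlf, a leucine zipper transcription factor that keeps stem cells quiescent, read 9.60, 10.14, 9.93 and 9.74 in wild type replicates 1, 2, 3 and 037. In the FLT3-ITD replicates in the same order it read 7.80, 8.30, 9.30 and 9.23. The genotypes did not overlap, and FLT3-ITD replicates 1 and 2 lay far below replicates 3 and 037. The means were 9.85 ± 0.23 and 8.66 ± 0.73 (SD, n = 4 each), a difference of −1.19 (SE 0.33, 95% interval −1.94 to −0.45, adjusted p = 0.247, exact two-sided permutation p = 0.0286, the smallest that 4 samples against 4 allow). Its other probe set gave −0.39, with overlap.

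Mecom, which codes for the zinc finger factor EVI1 and its longer form with a PR domain, read between 7.78 and 7.97 in wild type (7.87, 7.97, 7.91 and 7.78) and 6.56, 7.61, 8.08 and 7.18 in FLT3-ITD. The wild type samples lay close together, while the FLT3-ITD samples ranged from far below to slightly above them. The difference was −0.52 (SE 0.29, adjusted p = 0.622), and −0.26 without FLT3-ITD replicate 1. Ndn, the growth suppressor necdin, was dim and read 6.96, 7.74, 5.84 and 5.76 in wild type and 6.18, 5.83, 5.54 and 5.75 in FLT3-ITD. Its wild type samples were split, with replicates 1 and 2 above all others. The difference was −0.75 (SE 0.42), but 6 of its 7 other probe sets were positive, up to 0.68, so its direction rests on the choice of probe set. Prdm16, a PR domain factor that stem cells need, differed by −0.23 (SE 0.30), and 1 of its other probe sets by 0.71; the mean over its probe sets differed by 0.08. Mllt3, a chromatin reader, and Nupr1, a small stress-induced nuclear protein, differed by −0.16 (SE 0.17) and −0.18 (SE 0.27). Other probe sets of Mllt3 differed by −0.52 and 0.04, and that of Nupr1 by 0.05.

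The promoters of the members that lay lower without overlap are shown so that their sequence can be seen beside the values. They are RefSeq windows of assembly GRCm38.p6, from 250 bases before to 50 after a gene's start, on the gene's own strand and 5′ to 3′, and 26 of the members matched 34 such windows; Angpt1 had no entry. Vldlr has starts at both of the positions chr19:27216234-27216533 and chr19:27216770-27217069 (plus strand), Hlf at chr11:90390868-90391167 (minus strand) and Txnip at chr3:96557707-96558006 (plus strand). Capitals mark the E-box letters searched for.

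Vldlr, first window: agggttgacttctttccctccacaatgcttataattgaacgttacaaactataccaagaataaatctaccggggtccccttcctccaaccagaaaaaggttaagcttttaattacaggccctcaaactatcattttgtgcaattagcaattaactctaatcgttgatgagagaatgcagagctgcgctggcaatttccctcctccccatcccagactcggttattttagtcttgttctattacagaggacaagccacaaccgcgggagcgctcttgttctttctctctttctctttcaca

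Vldlr, second window: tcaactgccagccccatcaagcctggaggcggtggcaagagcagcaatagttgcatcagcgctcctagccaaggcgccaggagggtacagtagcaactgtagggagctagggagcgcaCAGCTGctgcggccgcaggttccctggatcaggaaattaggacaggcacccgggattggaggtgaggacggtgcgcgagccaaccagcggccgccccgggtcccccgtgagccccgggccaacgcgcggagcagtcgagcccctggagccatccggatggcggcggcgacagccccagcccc

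Hlf: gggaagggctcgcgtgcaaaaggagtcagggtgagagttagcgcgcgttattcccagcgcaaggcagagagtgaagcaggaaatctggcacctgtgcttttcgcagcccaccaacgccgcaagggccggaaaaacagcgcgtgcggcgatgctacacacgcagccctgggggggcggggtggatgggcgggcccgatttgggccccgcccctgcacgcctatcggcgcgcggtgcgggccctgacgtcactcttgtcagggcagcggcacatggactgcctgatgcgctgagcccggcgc

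Txnip: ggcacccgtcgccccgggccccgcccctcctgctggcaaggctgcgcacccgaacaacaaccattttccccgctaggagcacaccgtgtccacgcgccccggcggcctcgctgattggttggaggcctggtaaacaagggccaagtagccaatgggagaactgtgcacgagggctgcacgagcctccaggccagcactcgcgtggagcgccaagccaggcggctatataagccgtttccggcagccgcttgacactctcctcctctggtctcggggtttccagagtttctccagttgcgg

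The windows were searched on both strands for AGATAA (the letters bound by GATA factors), CAGGAAGT (ETS factors), TTCNNNGAA (STAT factors) and CAGCTG (an E-box). The second Vldlr window held CAGCTG at position −132 relative to the start, and the windows of Hlf and Txnip and the first of Vldlr held none of the 4. Over all members, CAGCTG lay in 8 of the 34 windows against 16.3% of 32851 windows of all genes, AGATAA in those of Myct1 and Tek against 11.2%, CAGGAAGT in 1 window of Abcg2 against 3.33%, and TTCNNNGAA in that of Nupr1 against 8.30%. A match describes letters in these windows and is not a bound site.

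The vessel-related signalling genes were lower in mean apart from Fgd5. Of the 5 tested (Angpt1, Myct1, Robo4, Procr and Eng) all were negative, with a median of −0.60, and none passed the test. Angpt1, the ligand angiopoietin-1, had the smallest p of all members. It read 9.85, 9.81, 9.69 and 9.66 in wild type and 8.33, 8.94, 9.22 and 9.02 in FLT3-ITD. The wild type samples lay within a narrow band, and all 4 FLT3-ITD samples were below it. The means were 9.75 ± 0.10 and 8.88 ± 0.38 (SD, n = 4 each), so Angpt1 was 1.83-fold lower in the means, a difference of −0.87 (SE 0.19, 95% interval −1.31 to −0.44, adjusted p = 0.124, exact permutation p = 0.0286). Its other probe set differed by −0.74, with overlap. Over the 18 alternative settings its difference stayed between −0.99 and −0.67, and its adjusted p between 0.0818 and 0.305.

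Tek, the angiopoietin receptor TIE2, lay below the array median on all 8 arrays. It read 4.52, 4.53, 5.03 and 5.38 in wild type and 3.60, 4.01, 4.0 and 4.78 in FLT3-ITD, where only replicate 037 overlapped wild type. The difference was −0.76 (SE 0.28, adjusted p = 0.508 without the filter). Fgd5, a guanine nucleotide exchange factor used as a stem cell reporter, ran the other way, with 5.30, 4.91, 5.22 and 3.36 in wild type and 5.54, 6.01, 6.12 and 6.07 in FLT3-ITD. Every FLT3-ITD sample was above every wild type sample, wild type replicate 037 was far the lowest, and only 3 FLT3-ITD samples exceeded the array median. The difference was 1.24 (SE 0.40, 95% interval 0.32 to 2.15, adjusted p = 0.413 without the filter, exact permutation p = 0.0286), and 0.79 without wild type replicate 037.

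Eng, or endoglin, a co-receptor for TGF-beta family ligands, read 8.01, 8.05, 8.23 and 7.67 in wild type and 7.69, 7.84, 7.51 and 7.88 in FLT3-ITD. Only wild type replicate 037 lay among the FLT3-ITD samples, and the difference was −0.26 (SE 0.16, adjusted p = 0.667), with −0.25 on its other probe set. Robo4, an endothelial roundabout receptor that helps stem cells lodge in the marrow, differed by −0.60 (SE 0.35) on its only probe set. Its wild type replicate 3 read 7.41 and the other wild type samples 5.95 to 6.19, against 5.29 to 6.39 in FLT3-ITD. Procr, the endothelial protein C receptor, differed by −0.34 (SE 0.21), with replicates 1 and 2 of FLT3-ITD below all wild type samples and replicates 3 and 037 among them. Myct1, a MYC target expressed in endothelium and stem cells, differed by −0.69 (SE 0.46), and its other 3 probe sets by −0.73 to −0.43. On the probe set that stood for Myct1, replicate 037 was the highest sample of each genotype. It read 9.95 and 9.09 there, against 8.31 to 8.32 and 7.58 to 7.87 in the others. On none of the other 3 Myct1 probe sets was replicate 037 the highest of its genotype.

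**Figure D3:**
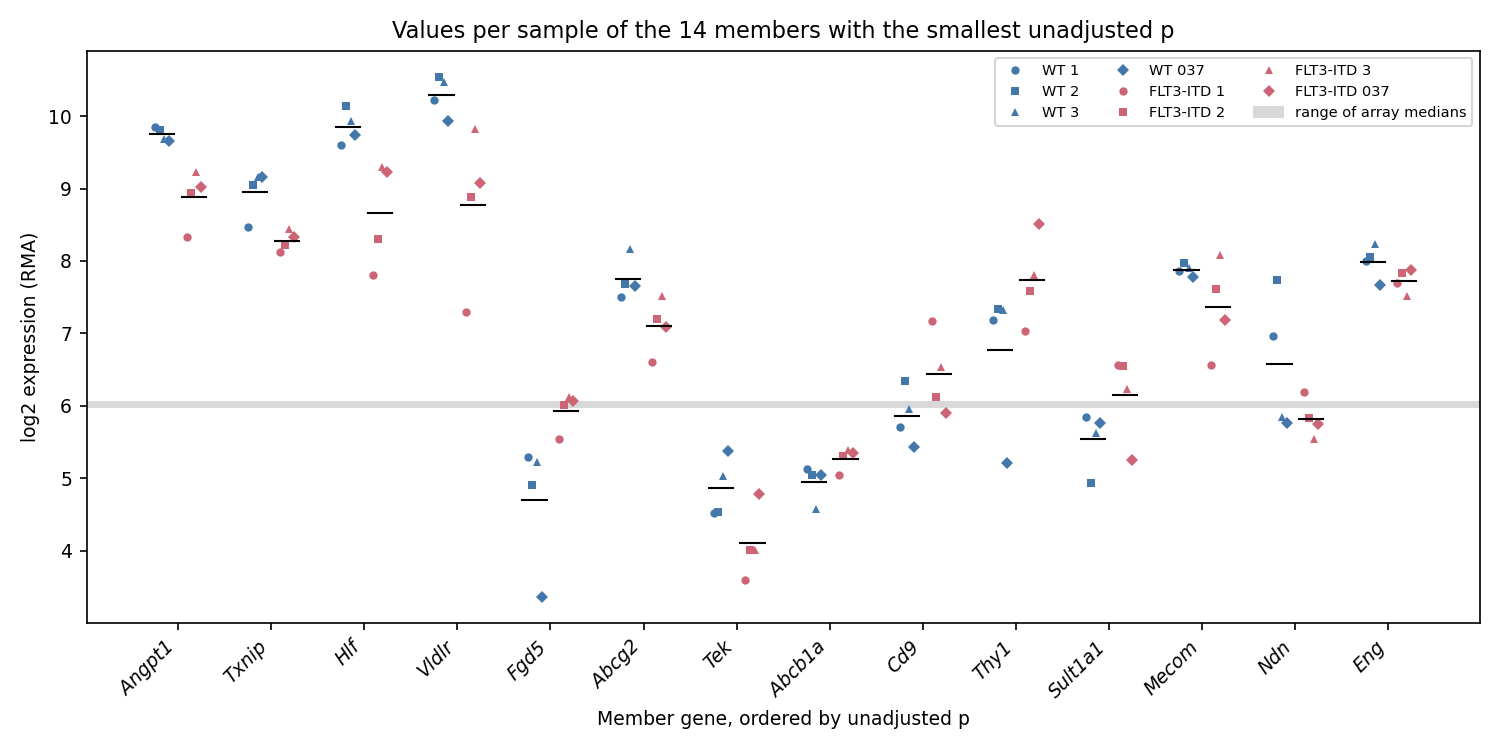
Points are the log2 values of the 8 samples for the 14 members with the smallest unadjusted p, blue for wild type and red for FLT3-ITD, with a marker shape for each replicate and a black line at each mean. Angpt1, Txnip, Hlf and Vldlr show no overlap between genotypes and lie well above the grey band of array medians, while the values of Fgd5, Tek and Abcb1a lie mostly below it.

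The receptor Vldlr had the largest difference of any member. It codes for the very low density lipoprotein receptor, which also binds reelin. Its probe set of highest mean carries the suffix x, which Affymetrix gives to sets whose probes may also bind other transcripts. The probe sets that stood for Ndn, Gpr56, Neo1 and Clu carry it as well. That of Vldlr read 10.22, 10.54, 10.47 and 9.94 in wild type and 7.29, 8.88, 9.83 and 9.08 in FLT3-ITD. The genotypes did not overlap, but the FLT3-ITD samples were far apart, from replicate 1 to replicate 3. The means were 10.29 ± 0.27 and 8.77 ± 1.07 (SD, n = 4 each), a 2.88-fold lower value in FLT3-ITD and a difference of −1.53 (SE 0.46, 95% interval −2.57 to −0.48, adjusted p = 0.304, exact permutation p = 0.0286). Without FLT3-ITD replicate 1 the difference was −1.03.

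All 5 other probe sets of Vldlr were lower too, by −1.99 to −0.72. Their FLT3-ITD samples lay closer together than on the first probe set, and their wild type samples farther apart. The probe set 1442169_at read 9.36, 9.24, 9.07 and 8.11 in wild type and 6.82, 7.16, 7.11 and 6.73 in FLT3-ITD. Here the 4 FLT3-ITD samples lay together and more than the whole of their own range below the lowest wild type sample. Its difference of −1.99 (SE 0.27) had an adjusted p of 0.0412 in the limma fit over all 45037 probe sets, in which 0.0289% of probe sets fell; it was the only probe set of the 75 to pass. Its adjusted p was 0.00374 without wild type replicate 037 and 0.0889 to 0.168 without each of the other 7 samples, so the call ended in 7 of 8 removals, while the difference in those 7 stayed between −2.06 and −1.85. This probe set was singled out after its values were seen. With each gene as the mean over its probe sets, Vldlr differed by −1.36 (SE 0.24) and passed, with an adjusted p of 0.0318 in a fit where 0.236% of 9338 genes fell. That call held on removal of wild type replicate 037 (0.0048) or of FLT3-ITD replicate 3 (0.0482), and ended without each of the other 6 samples, with an adjusted p of 0.0893 to 0.119.

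**Figure D4:**
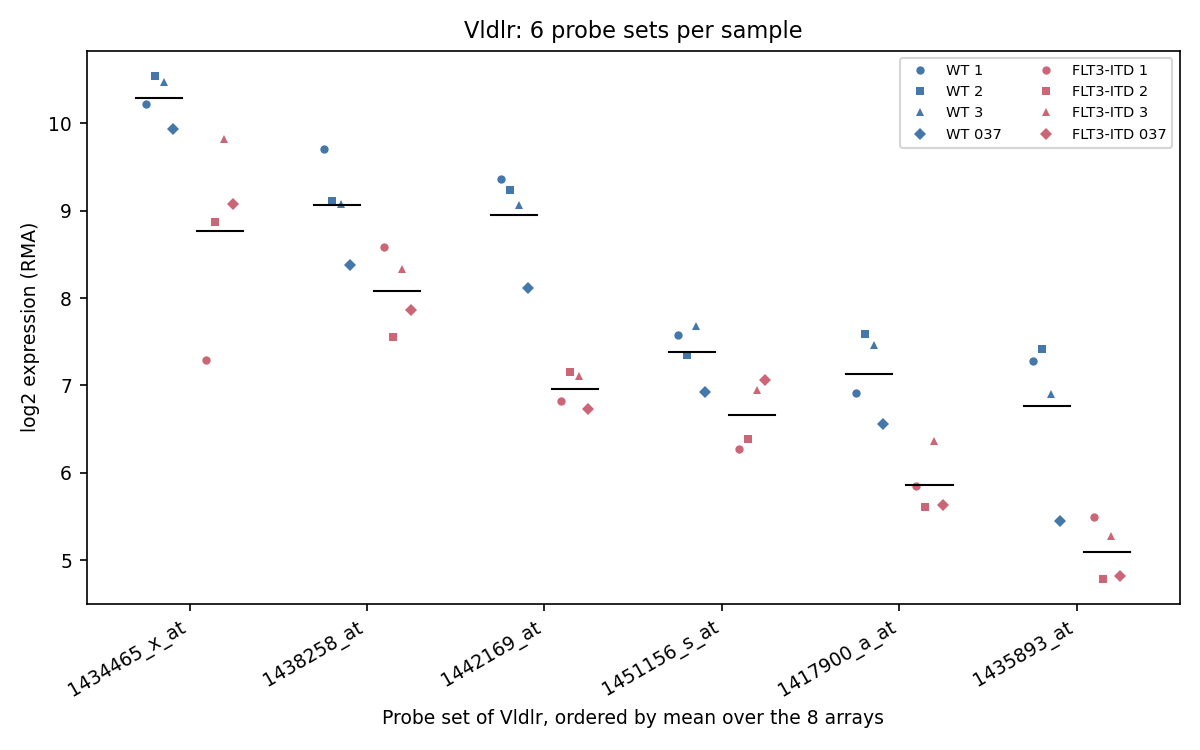
Points are log2 values of the 8 samples for each of the 6 probe sets of Vldlr, blue for wild type and red for FLT3-ITD, with a black line at each mean. FLT3-ITD lies lower in the mean of every probe set, FLT3-ITD replicate 1 is far the lowest on the first probe set only, and wild type replicate 037 is the lowest wild type sample on all 6.

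The other receptors had small differences. Gpr56, named Adgrg1 in current annotation, is an adhesion G protein-coupled receptor of stem cells. It differed by −0.20 (SE 0.23), and its other probe set by 0.01. Neo1, the netrin and RGM receptor neogenin, differed by 0.12 (SE 0.22), and its other 4 probe sets ran from −0.30 to 0.24.

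Surface and adhesion genes showed no common direction. Of the 5 tested (Cd9, Thy1, Cd34, Esam and Jam3) 3 were negative, with a median of −0.00. Thy1, a small glycoprotein of stem and T cells, read 7.18, 7.34, 7.33 and 5.21 in wild type and 7.04, 7.59, 7.80 and 8.51 in FLT3-ITD. Wild type replicate 037 was far below the rest and FLT3-ITD replicate 037 the highest of all. The difference of 0.97 (SE 0.50, adjusted p = 0.607) was 0.45 without wild type replicate 037. Cd9, a tetraspanin of stem cells and megakaryocytes, read 5.71, 6.34, 5.96 and 5.43 in wild type and 7.16, 6.12, 6.54 and 5.90 in FLT3-ITD, with overlap, a difference of 0.57 (SE 0.29, adjusted p = 0.602). Cd34, a sialomucin of progenitors and endothelium, differed by −0.08 (SE 0.12, 95% interval −0.34 to 0.18). Esam, an endothelial adhesion molecule, differed by −0.00 (SE 0.18, 95% interval −0.42 to 0.41), and the junctional molecule Jam3 by −0.08 (SE 0.35). The other probe set of Jam3 differed by 0.04. Below the filter, its relative Jam2 differed by 0.00 (SE 0.15), Prom1, the surface protein CD133, by 0.16 (SE 0.48), and Ctnnal1, the catenin-like marker alpha-catulin, by 0.41 (SE 0.30) on 1 probe set and −0.37 on the other.

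Of the transport and detoxification genes only Abcg2, the efflux pump behind the side population of stem cells, was bright enough to test. It read 7.50, 7.68, 8.17 and 7.66 in wild type and 6.60, 7.20, 7.51 and 7.09 in FLT3-ITD. Only FLT3-ITD replicate 3, at 7.51, reached the lowest wild type sample, at 7.50. The means were 7.75 ± 0.29 and 7.10 ± 0.38 (SD, n = 4 each), a difference of −0.65 (SE 0.22, 95% interval −1.15 to −0.15, adjusted p = 0.379, exact permutation p = 0.0571). Abcb1a, a P-glycoprotein pump, was dim and read 5.13, 5.05, 4.57 and 5.04 in wild type and 5.04, 5.31, 5.39 and 5.35 in FLT3-ITD, a difference of 0.32 (SE 0.15, adjusted p = 0.62 without the filter) that was 0.20 without wild type replicate 3. Its other probe set differed by 0.36. Sult1a1, a sulfotransferase, was dim as well, with 5.84, 4.94, 5.62 and 5.76 in wild type and 6.57, 6.55, 6.23 and 5.25 in FLT3-ITD. Replicate 037 alone was low in FLT3-ITD, and the difference was 0.61 (SE 0.32).

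Of the remaining members, the 3 tested (Txnip, Clu and Pdzk1ip1) were all negative, with a median of −0.28, and none passed the test. Txnip, which binds thioredoxin and restrains glucose uptake, read 8.47, 9.04, 9.16 and 9.16 in wild type and 8.12, 8.22, 8.45 and 8.33 in FLT3-ITD. The genotypes did not overlap, although wild type replicate 1 was nearly level with the highest FLT3-ITD sample. The means were 8.96 ± 0.33 and 8.28 ± 0.14 (SD, n = 4 each), a 1.60-fold lower value and a difference of −0.68 (SE 0.18, 95% interval −1.09 to −0.27, adjusted p = 0.205, exact permutation p = 0.0286). Its other probe set differed by −0.42, with overlap. Clu, the chaperone clusterin, differed by −0.28 (SE 0.32), Pdzk1ip1, a small membrane protein of stem cells, by −0.20 (SE 0.18), and Fhl1, a LIM domain protein, by −0.39 (SE 0.27) below the filter. Other probe sets of Clu differed by −0.405 to 0.18, that of Pdzk1ip1 by −0.24 and that of Fhl1 by 0.01.

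**Figure D5:**
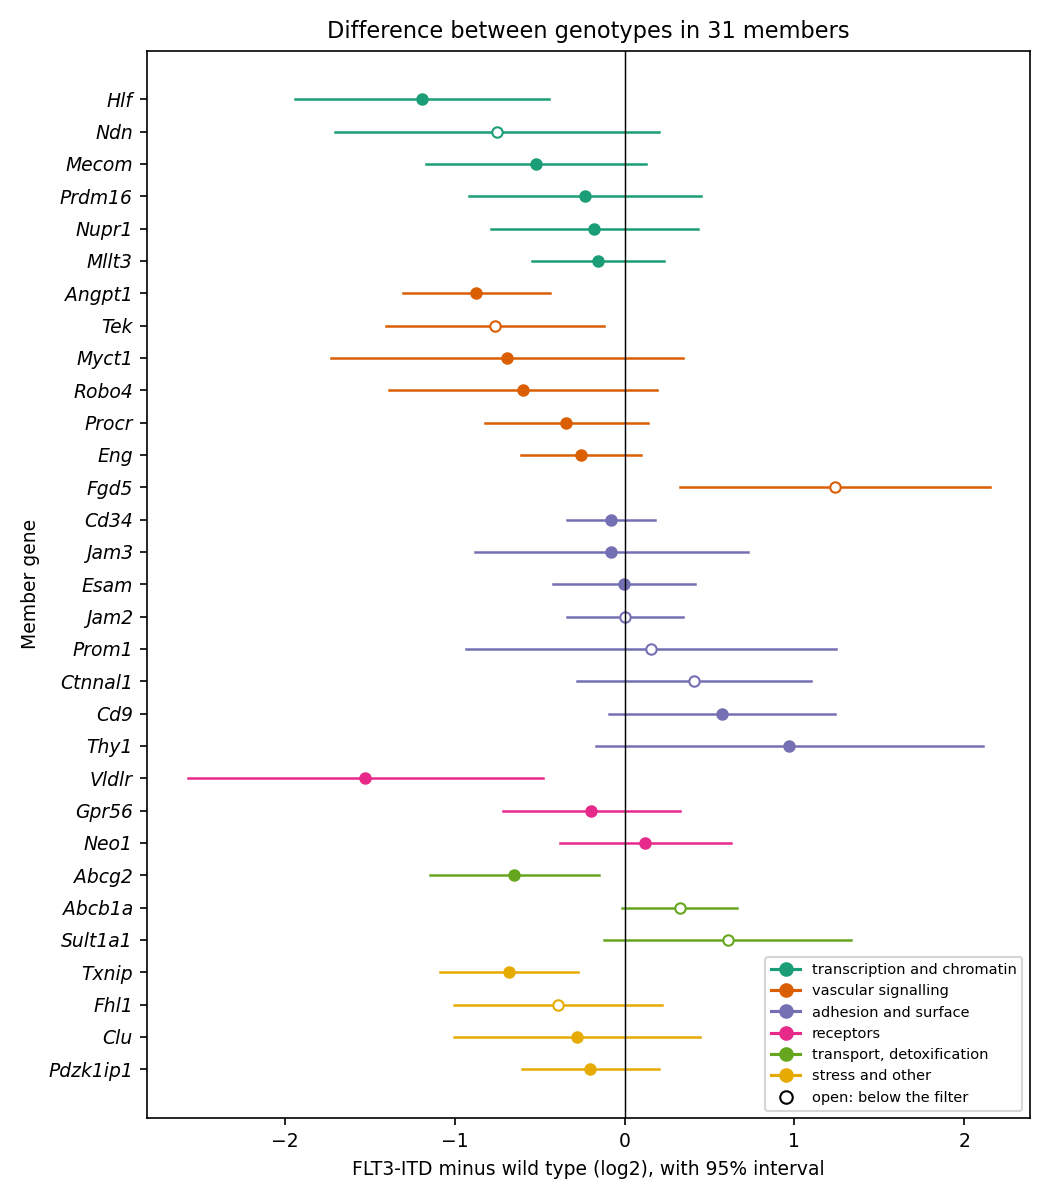
Points are the differences between FLT3-ITD and wild type (log2) of the 31 measured members, grouped by role and coloured by it, with lines for the 95% intervals and open points for members below the filter. The intervals of Hlf, Angpt1, Vldlr, Abcg2, Txnip and the dim Tek lie wholly below 0, and that of the dim Fgd5 lies wholly above 0.

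Probe sets of 1 gene did not always share a direction. Of the 20 members with more than 1 probe set, 9 had all probe sets on the same side of 0, among them Vldlr, Angpt1, Hlf, Txnip, Mecom, Myct1 and Eng. Over all 75 probe sets, 49 were negative.

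A wider set of 36 other genes linked to stem cells was read beside the members. Of its 24 tested genes 3 rose and none fell, where 0.427% of all tested genes rose. Socs2, a cytokine-induced inhibitor of STAT signalling, rose by 6.55 (SE 0.27, adjusted p = 1.91e-05), Clec1a, a C-type lectin, by 3.12 (SE 0.27, adjusted p = 0.00216) and Mycn, a MYC family factor, by 1.98 (SE 0.21, adjusted p = 0.00385). Socs2 and Clec1a lay below the array median in every wild type sample and above it in every FLT3-ITD sample, so they passed the filter through FLT3-ITD alone, and the size of their differences rests on dim wild type values (means of 4.52 and 4.55). Without the filter their adjusted p was 4.24e-05 and 0.00413. In the set 13 of 24 were negative, with a median of −0.19. At an unadjusted p under 0.05, 5 of the 24 read lower, or 20.8%, against 3.84% of all tested genes. At that level 4 of the 24 read higher, against 5.74% of all tested genes. Without overlap 3 of the 24 lay lower, or 12.5%, against 2.44%. Higher without overlap lay 5 of the 24, Socs2 and Clec1a among them, against 3.77%. Whether this set differs from the members was not tested. The stem cell factor Hoxa9 differed by −0.70 (SE 0.19, adjusted p = 0.239).

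The angiopoietin and vessel growth factor genes showed no common direction. Of 12 genes 4 were tested and none passed. Angpt2, the other angiopoietin, differed by −0.33 (SE 0.13, adjusted p = 0.45). Vegfa and its co-receptor Nrp1 were positive, by 0.87 (SE 0.24) and 1.24 (SE 0.34), each with an adjusted p of 0.247. Angpt1 and Angpt2 lay lower without overlap, and Vegfa and Nrp1 higher without overlap. Over all tested genes 2.44% lay lower and 3.77% higher without overlap. Tie1, the partner of TIE2, was below the filter and differed by 0.82 (SE 0.36), against −0.76 for Tek. Of 10 tested quiescence genes none passed, 7 were negative and the median was −0.15; the cell cycle inhibitor Cdkn1b differed by −0.43 (SE 0.19, adjusted p = 0.52), and its relative Cdkn1a by 0.44 (SE 0.20, adjusted p = 0.549). Of 6 tested ABC and SLC transporters none passed and 5 were negative; Abcg2 had the largest difference, ahead of Abca1 at −0.32 (SE 0.57).

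Markers of other cells were read beside these results. Endothelial markers were mixed: the mean over 18 genes was 5.66 to 5.77 in wild type and 5.64 to 5.87 in FLT3-ITD, 11 of the 18 were below the array median on all 8 arrays, and none of the 4 tested passed. The defining endothelial genes Cdh5, Kdr, Vwf, Plvap and Cldn5 were all among those 11. Pecam1 and Egfl7, which blood progenitors also express, exceeded the median on all 8 arrays, with means of 7.76 and 8.80 in wild type and 7.78 and 8.85 in FLT3-ITD. Emcn (7.14 and 6.26) and Stab2 (6.34 and 6.36) exceeded it on all 4 wild type arrays and on 3 FLT3-ITD arrays. The erythroid list had 8 measured genes, with means of 6.20 to 6.89 in wild type and 5.57 to 5.90 in FLT3-ITD, without overlap. All 5 of its tested genes were negative, with a median of −0.69. Of them 2 fell, where 0.177% of all tested genes fell. These were the globin gene Hbb-b2, whose probes may also bind its near-identical copies (−2.76, SE 0.31, adjusted p = 0.00576), and the red cell anion exchanger Slc4a1 (−2.10, SE 0.34, adjusted p = 0.0336). Mature myeloid markers (11 genes) ranged from 6.39 to 7.50 in wild type and from 5.48 to 7.39 in FLT3-ITD, lowest in FLT3-ITD replicate 1. None of the 7 tested passed, and 6 were negative, with a median of −1.34. At an unadjusted p below 0.05, 3 read lower, or 42.9%, against 3.84% of all tested genes. The part of these erythroid and myeloid differences in the members' values was not tested. Means of megakaryocyte markers (10 genes) were 5.40 to 5.92 and 5.52 to 5.67, of stromal markers (12 genes) 5.51 to 5.85 and 5.58 to 5.90, of T and NK cell markers (9 genes) 5.82 to 5.98 and 5.85 to 6.07, and of B cell markers (9 genes) 5.48 to 5.70 and 5.34 to 5.59, all overlapping and with no gene past the test.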

How the data were processed

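Gene expression was measured on 8 Affymetrix mouse arrays, 4 of wild type and 4 of FLT3-ITD progenitors. Per the labels' protocols, Trizol was used to extract the RNA, a NuGEN Pico kit to amplify it and biotin to label it. The authors deposited log2 values, 1 for each probe set, made with RMA per the submitters' processing notes (version not given in the sources used here). RMA puts arrays on 1 distribution, and it shrinks differences at low signal.

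Of 45101 probe sets, 64 controls were left out; 34945 had exactly 1 gene in the platform annotation of 2016, 932 had several and 9160 had none listed. Symbols were updated through the Entrez ID for 34741 of them, with a RefSeq gene table of GRCm38.p6 used for names. The genotypes were compared with limma 3.58.1 in R 4.3.3 (lmFit and eBayes, no covariate) over all 10762 genes tested, at an adjusted p of 0.05. Single values were compared with an exact permutation test. Figures were drawn with matplotlib 3.10.9. Data were simulated from the 10762 genes of the FLT3-ITD and wild type comparison, with 200 genes changed, split evenly over the sizes that follow. A true log2 change of 0.5 was called in 2% of the genes given it, 1 in 54%, 2 in 92% and 3 in 98%. Noise was drawn for each gene on its own, so a sample that shifts many genes together was not simulated.

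The members, the gene lists and the tests were chosen with earlier results of these data known. Values in every sample are given for the 14 members with the smallest unadjusted p without the filter, since none passed; the others are given by their differences. Of each related list the genes past the test, or otherwise up to 2 of small p, were named; the remaining named genes were chosen after their values were seen. Alternatives covered the filter, the probe set choice, array scaling, the variance model, array weights, the replicate numbers, the tag 037 and the removal of each sample.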

Additional observations from a re-analysis of the deposited data

Results flagged for a closer look

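In the groups of 4 samples of the 14 members given in full, a sample lay far from its group in 3 of 28 groups, where about 1 in 20 would be flagged by chance. Txnip read 8.47 in wild type replicate 1, against 9.04 in the next sample. Abcb1a read 4.57 in wild type replicate 3, against 5.04 in the next, on a probe set below the array median, and its difference was 0.32 with that sample and 0.20 without it. Thy1 read 5.21 in wild type replicate 037, against 7.18 in the next, and its difference between genotypes was 0.97 with that sample and 0.45 without it.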

How the results depend on the processing

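With 4 samples a genotype, differences near 0.5 on the log2 scale were rarely recovered in simulated data, so most members lie where the design calls little. No member passed under 17 of the 18 alternatives; with the mean over probe sets, 1 member was lower past the threshold, Vldlr, and the differences of Ndn and Prdm16 turned to 0.11 and 0.08, and that of Jam2, near 0, to −0.01. The count of genes that rose over all genes tested (46) was 18 with the stricter filter and 12 to 40 when each sample was left out; the count that fell (19) was 7 with the stricter filter, 30 with array weights, 6 with replicates 1 and 037 averaged and 1 to 9 when each sample was left out. With the replicate number as a block (replicate block), 19 rose and 3 fell, and no member passed, the lowest adjusted p being 0.194 for Myct1. Samples of the same number correlated in their deviations at 0.03 to 0.11. Those of different numbers were not compared, so these values cannot decide whether the numbers are pairs. The main fit did not pair them. With FLT3-ITD replicates 1 and 037 both left out, which was added with the data in view, 12 rose, 3 fell and the members' median was −0.40. The lowest adjusted p of a member when 1 sample was left out was 0.0538, for Txnip without wild type replicate 1. The removals of single samples for Vldlr, also added after seeing the data, are given with its values.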
